A study of Mus musculus with 10 samples.

Results

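MHC class II molecules are the surface proteins that present peptides of ingested material to CD4 T cells, and the 10 genes described here encode them and the machinery that loads them. The genes were taken by symbol, as a set chosen with earlier results of these data known: H2-Aa, H2-Ab1, H2-Eb1, Cd74, H2-DMa, H2-DMb1, H2-DMb2, H2-Oa, H2-Ob and the transactivator Ciita. All 10 were found among the 23930 genes of the count table, each read at 1 amplicon, and all 10 passed the filter on low counts that left 12719 genes to test. The tissue was white fat from around the epididymis, a visceral depot, of male C57BL/6 mice aged 18 weeks that had spent 8 weeks on a diet high in sucrose and fat. The mice were Srgn-/- (5 animals) or Srgn+/+ (5 animals), and nothing but the Srgn genotype differed between the groups in the labels. Srgn encodes serglycin, a proteoglycan that binds stored proteins in the secretory granules of blood-derived cells. The comparison asks how its loss changes the immune profile of diet-fed fat.

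Class II molecules are pairs of an alpha and a beta chain. They assemble with the invariant chain, encoded by Cd74, which fills the peptide groove until proteases cut it down in the endosome. H2-DM then exchanges the remaining fragment for antigenic peptide, and H2-O holds H2-DM back. Ciita binds no DNA itself. It is recruited to class II promoters by a complex of RFX, CREB and NF-Y proteins that occupies conserved elements known as the X box and the Y box, and its own level is known to set how much class II a cell makes. Dendritic cells, B cells and activated macrophages are the usual sources, and fat cells of obese mice have been described as a further one. In bulk tissue, fewer cells of a type and less RNA per cell cannot be told apart.

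The 10 libraries held 7824764 to 10757779 reads. The Srgn amplicon had 0 to 12 reads in Srgn-/- libraries, against 776 to 1301 in Srgn+/+ libraries (log2 -8.18, SE 0.508; adjusted p = 9.44e-05 in edgeR). Adipocyte markers summed to 32634 to 40384 CPM (counts scaled to a common library size) in Srgn-/- fat and 33427 to 42169 CPM in Srgn+/+ fat, with 9 of 9 tested. Epididymis markers were high in 3 libraries, at 6393 CPM in Srgn-/- 3, 889 CPM in Srgn-/- 5 and 727 CPM in Srgn+/+ 4, against 0.191 to 21.5 CPM in the other libraries. The log2 fold change of each class II gene is given with and without these libraries, in a fit that then has 3 Srgn-/- and 4 Srgn+/+ animals. Each library is a separate animal and is named by genotype and accession order, which pairs no animals.

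Of the class II genes whose promoter sequence was at hand, 4 carried the letters of the X box core followed by those of the Y box, within the spacing searched. RefSeq windows of 300 bases (250 before to 50 after the annotated start, build GRCm38.p6) were at hand for 7 of the 10 genes, in 8 windows. The motifs searched on both strands were AGNAAC, taken from the core of the X box, ATTGG, the Y box, and AGNAAC followed by ATTGG after 15 to 35 bases, a pair that by its construction overlaps both single motifs. The pair was found in 4 of the 8 windows, those of H2-Eb1, H2-DMb1, H2-Oa and H2-Ob, with gaps of 27, 28, 28 and 25 bases. Over all 21113 windows of genes in the table, 1.15% held the pair, 46.2% held AGNAAC and 37.4% held ATTGG. Among the class II windows ATTGG was found in 7 of 8 and AGNAAC in 5 of 8. A window of H2-DMa held both motifs, but not as the pair. The stretches that hold the pair in H2-Eb1 (chr17:34305737-34305846, plus strand), H2-Ob (chr17:34238775-34238884, plus strand) and H2-Oa (chr17:34092249-34092358, plus strand), and the same stretch of H2-Aa (chr17:34287844-34287953, minus strand), which held ATTGG without AGNAAC, are shown because they place the Y box of each gene. Each runs 5′ to 3′ over 110 bases and ends 21 bases before the start, and capitals mark AGNAAC and ATTGG on either strand; CCAAT is ATTGG on the other strand.
H2-Eb1: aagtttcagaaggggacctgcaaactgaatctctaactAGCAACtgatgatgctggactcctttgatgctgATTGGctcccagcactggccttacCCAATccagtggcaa
H2-Ob: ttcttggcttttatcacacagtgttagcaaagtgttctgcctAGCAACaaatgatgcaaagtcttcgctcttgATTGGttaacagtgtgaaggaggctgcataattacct
H2-Oa: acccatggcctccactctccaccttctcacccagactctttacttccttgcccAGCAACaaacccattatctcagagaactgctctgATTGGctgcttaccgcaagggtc
H2-Aa: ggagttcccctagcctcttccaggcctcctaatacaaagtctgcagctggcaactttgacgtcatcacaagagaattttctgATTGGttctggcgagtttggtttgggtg
The ATTGG on the strand shown began 59, 57, 43 and 48 bases before the start in these genes, in that order. The absence of AGNAAC from the H2-Aa window says only that these letters are not in it.

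H2-DMb1 and H2-DMb2 are neighbouring copies of the H2-DM beta gene, and their promoters could be laid side by side at the ATTGG. The stretch of H2-DMb1 lies at chr17:34153084-34153137 and that of H2-DMb2 at chr17:34145113-34145166, both on the plus strand of GRCm38.p6. They are shown because, of the read ratios taken, that of these copies varied most across animals, as described further on. Capitals mark the bases that differ.
H2-DMb1: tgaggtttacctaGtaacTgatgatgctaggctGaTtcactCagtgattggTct
H2-DMb2: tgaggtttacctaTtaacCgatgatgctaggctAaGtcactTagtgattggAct
Of the 54 bases, 48 were identical and 6 differed: G14T, T19C, G34A, T36G, C42T and T52A, with the H2-DMb1 base first and positions counted from 1 at the 5′ end. G14T falls within AGNAAC, so the letters of that motif were found in H2-DMb1 and not in H2-DMb2. The ATTGG began 61 bases before the annotated start in H2-DMb1 and 90 bases before it in H2-DMb2. Any part of these differences in the levels of the copies was not tested.

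None of the 10 genes passed the test between the genotypes. The values of 9 of the 10 were lower in Srgn-/- fat by the fitted log2 fold change, where 50.3% of all genes tested were below 0, and their median log2 fold change was -0.26, against 0.00 over all genes tested. By the edgeR quasi-likelihood test 0 of the 10 had an adjusted p under 0.05, where 0.00786% of all genes did (1 gene, Srgn). At an unadjusted p under 0.05 there was 1 gene, Ciita, with lower values, and 0 with higher values, where 6.06% of all genes were lower and 6.77% higher at that threshold. DESeq2 and limma-voom also called 0 of the 10, where they called 1.74% and 0.00786% of all genes. They had 2 and 1 of the 10 at an unadjusted p under 0.05. The share of all genes at that unadjusted threshold in DESeq2 and limma-voom is not given here, so these counts have no background beside them. The groups overlapped for all 10 genes, where 1.38% of all genes had every Srgn-/- library below every Srgn+/+ library and 1.39% the reverse. Without the 3 libraries rich in epididymis RNA, 10 of 10 had lower values, and 0 reached an unadjusted p under 0.05. Their median was -0.11, against 0.003 over all genes, and some lay close to 0, such as H2-DMa at -0.03 and H2-DMb2 at -0.04. The share of all genes below 0 in that fit is not given here. The 10 genes share cells and a regulator, so they are not independent replicates of a shift.

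Ciita, the transactivator, had 66.0, 36.9, 33.0, 34.96 and 32.6 CPM in Srgn-/- 1 to 5, against 37.2, 83.2, 56.3, 55.4 and 66.1 CPM in Srgn+/+ 1 to 5. Of the Srgn-/- libraries, 4 lay below all Srgn+/+ libraries in CPM, and Srgn-/- 1 lay among the higher Srgn+/+ ones. That order rests on a narrow margin, 36.86 CPM in Srgn-/- 2 against 37.15 CPM in Srgn+/+ 1. In the deposited reads-per-million values it was reversed for these libraries, at 38.97 in Srgn-/- 2 and 37.77 in Srgn+/+ 1. The means were 40.7 ± 14.3 CPM in Srgn-/- and 59.6 ± 16.8 CPM in Srgn+/+ (SD, n = 5 each), a difference of -0.55 in log2 (SE 0.241, 95% interval -1.08 to -0.02; edgeR unadjusted p = 0.0431, adjusted p = 0.377). Without Srgn-/- 1 it was -0.80 (edgeR adjusted p = 0.148), and without the 3 libraries rich in epididymis RNA it was -0.40 (edgeR adjusted p = 0.999).

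H2-Ab1, the beta chain of the I-A molecule, had 1162, 575, 653, 950 and 771 CPM in Srgn-/- 1 to 5, against 616, 1363, 1230, 1168 and 1343 CPM in Srgn+/+ 1 to 5. Apart from Srgn+/+ 1, every Srgn+/+ library lay above every Srgn-/- library in CPM, by a narrow margin between Srgn+/+ 4 and Srgn-/- 1. In the deposited reads-per-million values that order was reversed, at 1108.7 in Srgn+/+ 4 and 1170.3 in Srgn-/- 1. The means were 822 ± 237 CPM in Srgn-/- and 1144 ± 306 CPM in Srgn+/+ (SD, n = 5 each), a difference of -0.48 in log2 (SE 0.237, 95% interval -0.99 to 0.04; adjusted p = 0.420 in edgeR). It ranged from -0.64 to -0.37 with 1 library left out (edgeR adjusted p = 0.154 without Srgn+/+ 1), and was -0.34 without the 3 libraries rich in epididymis RNA (edgeR adjusted p = 0.999).

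H2-Aa, the alpha chain of the same molecule, had 1401, 763, 763, 1283 and 836 CPM in Srgn-/- 1 to 5, against 648, 1331, 1324, 1068 and 1579 CPM in Srgn+/+ 1 to 5. The groups interleaved: Srgn-/- 1 was the next highest after Srgn+/+ 5, and Srgn+/+ 1 was the lowest of all. The log2 fold change was -0.24 (SE 0.250, 95% interval -0.78 to 0.31; edgeR adjusted p = 0.720), from -0.39 without Srgn+/+ 1 to -0.12 without Srgn+/+ 5, and -0.09 without the 3 epididymis-rich libraries. Reads of H2-Aa per read of H2-Ab1 were 1.21, 1.33, 1.17, 1.35 and 1.08 in Srgn-/- 1 to 5, against 1.05, 0.977, 1.08, 0.914 and 1.175 in Srgn+/+ 1 to 5. The ratio thus ran higher in Srgn-/- fat with an overlap, and its difference was not tested. Amplicon efficiency enters the size of such a ratio, but is shared by the libraries.

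H2-Eb1, the beta chain of the I-E molecule, had 1525, 804, 795, 1322 and 903 CPM in Srgn-/- 1 to 5, against 779, 1639, 1769, 1429 and 1727 CPM in Srgn+/+ 1 to 5. As for H2-Ab1, Srgn+/+ 1 was low and Srgn-/- 1 high for its group. The log2 fold change was -0.46 (SE 0.248, 95% interval -1.001 to 0.09; edgeR adjusted p = 0.465), from -0.62 to -0.37 with 1 library left out, and -0.28 without the 3 epididymis-rich libraries. Reads of H2-Eb1 per read of H2-Ab1 stayed between 1.17 and 1.40 in Srgn-/- fat and between 1.20 and 1.44 in Srgn+/+ fat, the narrowest span of the 5 ratios taken. The alpha chain that pairs with the H2-Eb1 product is not made in C57BL/6 mice, whose gene for it is known to be disrupted, and the amplicon of that pseudogene, H2-Ea-ps, had 0 reads in all 10 libraries. A count of 0 allows up to 0.287 to 0.398 CPM, the level of 3 reads in a library. H2-Eb2, a further beta gene of the region, had 2 to 10 reads and was not tested.

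Cd74, the invariant chain, had 4149, 2456, 2399, 4040 and 2659 CPM in Srgn-/- 1 to 5, against 2191, 3950, 4522, 3459 and 4848 CPM in Srgn+/+ 1 to 5. Srgn-/- 1 and 4 lay within the upper Srgn+/+ libraries and the other Srgn-/- libraries below them. The means were 3141 ± 877 CPM in Srgn-/- and 3794 ± 1042 CPM in Srgn+/+ (SD, n = 5 each), a difference of -0.27 in log2 (SE 0.231, 95% interval -0.78 to 0.23; edgeR adjusted p = 0.641). It was -0.42 without Srgn+/+ 1, -0.17 without Srgn+/+ 5 and -0.13 without the 3 epididymis-rich libraries.

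**Figure D1:**
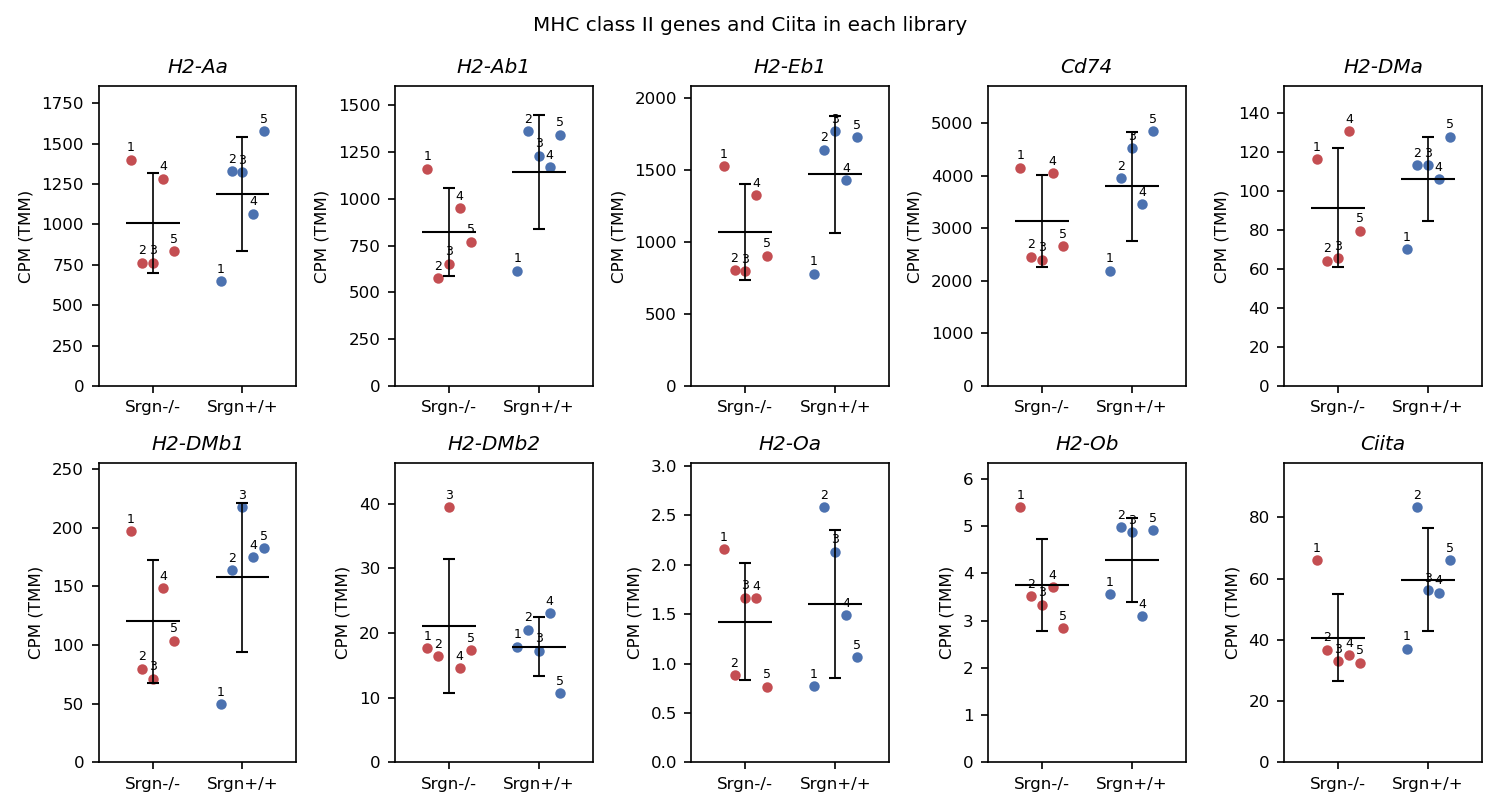
Level of each gene in CPM with TMM factors (vertical axes from 0) in Srgn-/- (left, red) and Srgn+/+ (right, blue) fat; points are libraries with their replicate number, lines are means and bars are SD over 5 libraries. The groups overlap in all 10 panels, Srgn+/+ 1 lies low in most and Srgn-/- 3 stands alone at 39.4 CPM for H2-DMb2.

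H2-DM, the peptide exchanger, is a pair of H2-DMa with either beta copy. H2-DMa had 116, 64.1, 65.4, 131 and 79.6 CPM in Srgn-/- 1 to 5, against 70.0, 113, 113, 106 and 128 CPM in Srgn+/+ 1 to 5. The highest and the lowest library were both Srgn-/- animals. The log2 fold change was -0.22 (SE 0.223, 95% interval -0.71 to 0.27; edgeR adjusted p = 0.713). It ranged from -0.38 without Srgn-/- 4 to -0.11 without Srgn-/- 2, and was -0.03 without the 3 epididymis-rich libraries.

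H2-DMb1 had 197, 79.9, 71.3, 148 and 104 CPM in Srgn-/- 1 to 5, against 49.9, 164, 217, 175 and 183 CPM in Srgn+/+ 1 to 5. Of the 10 genes it had the widest span from lowest to highest library, with 4.36 times as much in Srgn+/+ 3 as in Srgn+/+ 1, both of the same genotype. The log2 fold change was -0.39 (SE 0.386, 95% interval -1.25 to 0.46; edgeR adjusted p = 0.696). It was -0.65 without Srgn-/- 1, -0.25 without Srgn+/+ 3 and -0.11 without the 3 epididymis-rich libraries.

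H2-DMb2, the copy beside it, had another order of libraries. It had 17.7, 16.4, 39.4, 14.5 and 17.4 CPM in Srgn-/- 1 to 5, against 17.9, 20.5, 17.3, 23.1 and 10.7 CPM in Srgn+/+ 1 to 5. Apart from Srgn-/- 3, which had the highest level, and Srgn+/+ 5, which had the lowest, the libraries stayed between 14.5 and 23.1 CPM. The log2 fold change was 0.23 (SE 0.287, 95% interval -0.40 to 0.86; edgeR adjusted p = 0.762), and -0.12 without Srgn-/- 3. Srgn-/- 3 was also the library with the most epididymis RNA, and Srgn+/+ 4, with the next highest H2-DMb2, was the third in that order, while Srgn-/- 5, with 889 CPM of epididymis markers, had 17.4 CPM of H2-DMb2. Without these 3 libraries the log2 fold change was -0.04. The part of epididymis RNA in the H2-DMb2 level was not tested.

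Reads of H2-DMb1 per read of H2-DMb2 were 11.2, 4.87, 1.81, 10.2 and 5.97 in Srgn-/- 1 to 5, against 2.78, 7.96, 12.6, 7.56 and 17.0 in Srgn+/+ 1 to 5. The ratio spanned 9.39-fold over the libraries, and both genotypes held low and high values. Within the same libraries the ratio of H2-Aa to H2-Ab1 spanned 1.48-fold, and that of H2-DMa to H2-DMb1 spanned 2.70-fold. The copies are close in sequence and how far each amplicon keeps them apart is not given, so the level of each is uncertain.

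**Figure D2:**
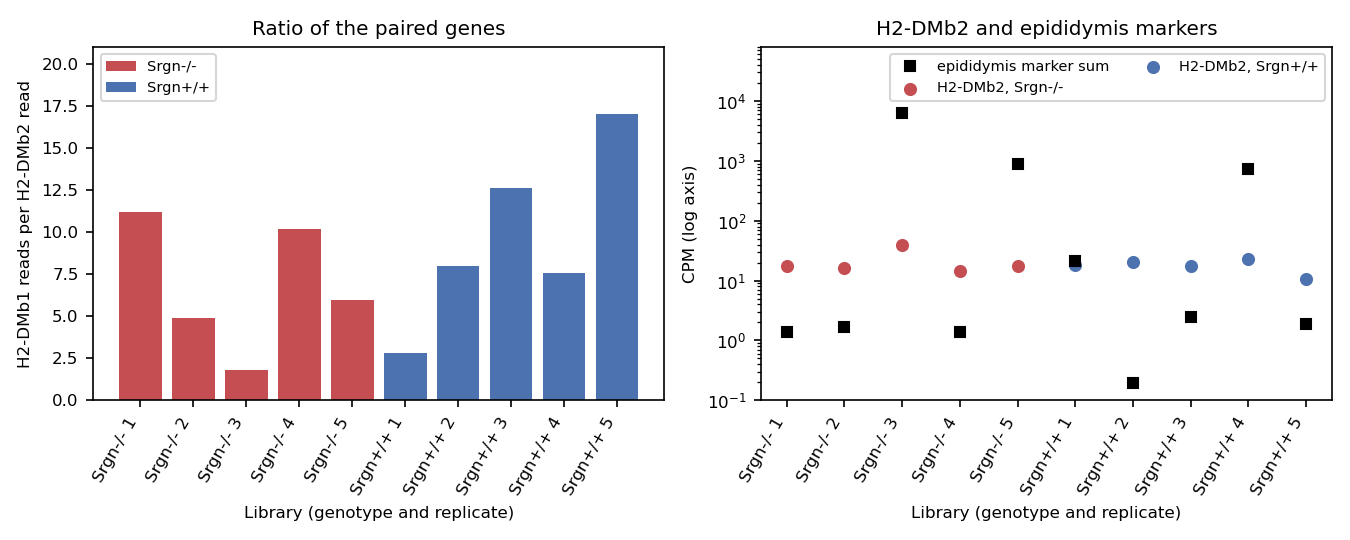
Left, reads of H2-DMb1 per read of H2-DMb2 in each library (bars from 0), lowest at 1.81 in Srgn-/- 3 and highest at 17.0 in Srgn+/+ 5. Right, H2-DMb2 (circles) and the summed epididymis markers (squares) in CPM on a log axis; Srgn-/- 3 has the most of both.

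H2-O, the inhibitor of H2-DM, is known mainly from B cells, and its genes were the least read of the 10. H2-Oa had 22, 8, 14, 13 and 7 reads in Srgn-/- 1 to 5, against 8, 27, 21, 13 and 8 reads in Srgn+/+ 1 to 5. H2-Ob had 55, 32, 28, 29 and 26 reads in Srgn-/- 1 to 5, against 37, 52, 48, 27 and 37 reads in Srgn+/+ 1 to 5. The groups overlapped for both, and at so few reads counting noise enters their spread more than that of the other genes. The log2 fold changes were -0.18 for H2-Oa (95% interval -1.08 to 0.72; edgeR adjusted p = 0.886) and -0.18 for H2-Ob (95% interval -0.71 to 0.35; edgeR adjusted p = 0.777). Without the 3 epididymis-rich libraries they were -0.07 for H2-Oa and -0.12 for H2-Ob.

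**Figure D3:**
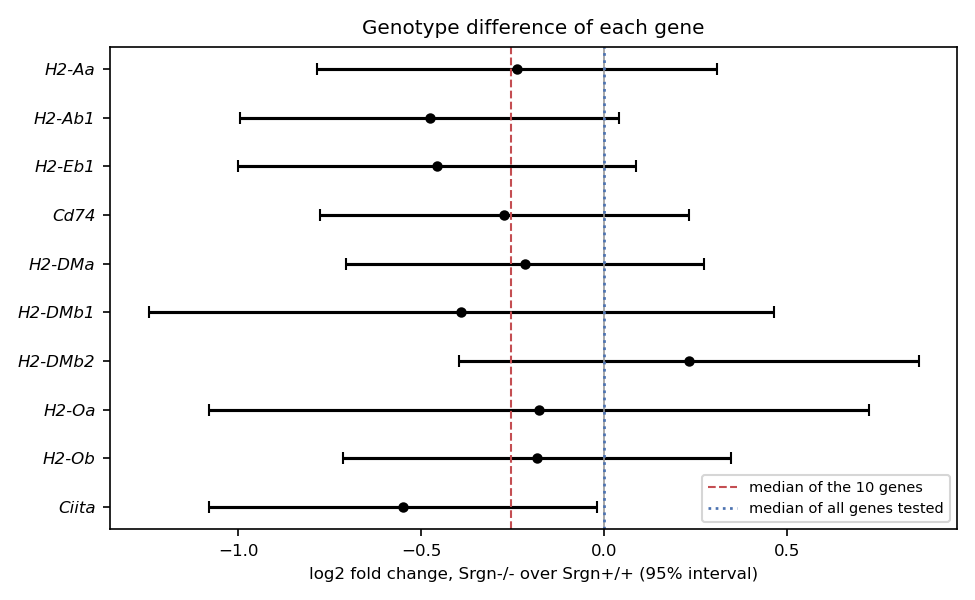
Log2 fold change of Srgn-/- over Srgn+/+ for each gene (points) with its 95% interval from the edgeR fit (bars); the dashed line is the median of the 10 genes, -0.26, and the dotted line that of all genes tested, 0.00. The interval of Ciita alone lies below 0, before any adjustment for the number of genes tested.

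Most of the class II genes were high or low in the same animals, and Srgn-/- 1 and Srgn+/+ 1 lay with the other genotype. Ciita put the libraries in 2 sets, 5 between 32.6 and 37.2 CPM (4 Srgn-/- and Srgn+/+ 1) and 5 between 55.4 and 83.2 CPM (4 Srgn+/+ and Srgn-/- 1). The 5 libraries with most Ciita were also the 5 with most H2-Ab1, H2-Eb1 and H2-DMb1, and 4 of them were among the top 5 for H2-Aa, Cd74, H2-DMa and H2-Ob. For H2-DMb2 and H2-Oa 3 were. Since the libraries lay in 2 sets along Ciita, no correlation with it is given. Srgn-/- 4 departed from the shared order: its Ciita, 34.96 CPM, was eighth of 10, while its H2-DMa was the highest of all and its Cd74 the fourth highest.

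**Figure D4:**
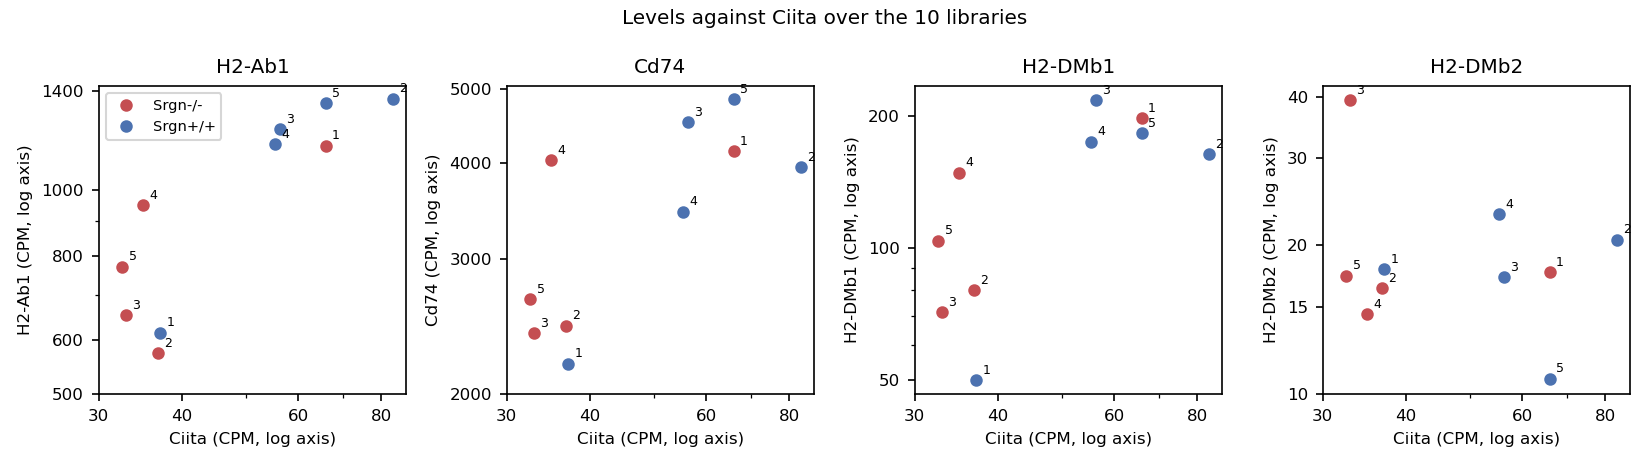
Levels of H2-Ab1, Cd74, H2-DMb1 and H2-DMb2 against Ciita in the 10 libraries (CPM, log axes; red, Srgn-/-; blue, Srgn+/+; numbers are replicates). The libraries lie in 2 sets along Ciita, with H2-Ab1 higher in every library of the upper set, Cd74 of Srgn-/- 4 at 4040 CPM above its set, and H2-DMb2 without that order.

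The summed macrophage and dendritic cell markers were low in the libraries where most class II genes were low, and the B-cell and T-cell sums followed another order. Macrophage markers (12 of 13 tested, all 12 with lower values, 0 past the threshold in edgeR and 3 at an unadjusted p under 0.05) summed to 1866 to 3627 CPM in Srgn-/- fat, against 1776 to 6089 CPM in Srgn+/+ fat. Dendritic cell markers (11 of 11 tested, 7 with lower values, 0 past the threshold in edgeR and 2 at an unadjusted p under 0.05) summed to 174 to 322 CPM in Srgn-/- fat, against 186 to 452 CPM in Srgn+/+ fat. Both sums were low in Srgn+/+ 1, at 1776 and 186 CPM, and were highest in Srgn+/+ 5, as were H2-Aa and Cd74. Genes with many reads weigh most in such sums. Lyz2 averaged 1341 CPM in Srgn-/- and 2159 CPM in Srgn+/+ fat in the macrophage sum. In the dendritic cell sum Clec10a averaged 108 and 146 CPM, while Flt3 averaged 2.41 and 2.67 CPM. The sums therefore do not show that each marker followed this order. B-cell markers (8 of 10 tested, all 8 with lower values, 0 past the threshold in edgeR and 2 at an unadjusted p under 0.05) summed to 18.6 to 28.1 CPM in Srgn-/- fat, against 27.8 to 53.4 CPM in Srgn+/+ fat, and the T-cell markers (9 of 10 tested, all 9 with lower values, 0 past the threshold in edgeR and 7 at an unadjusted p under 0.05) to 18.0 to 26.3 CPM in Srgn-/- fat, against 28.6 to 76.3 CPM in Srgn+/+ fat. DESeq2 called 3 of these markers, Cd2 of T cells and Cd79b and Pou2af1 of B cells, all lower in Srgn-/- fat, where it called 1.74% of all genes. For these lists and those that follow, 6.06% of all genes were lower and 6.77% higher at an unadjusted p under 0.05 in edgeR. Of all genes, 50.3% had a log2 fold change below 0. B-cell markers were low in Srgn-/- 1, at 18.6 CPM, where Ciita, H2-Oa and H2-Ob were high. Their sum was highest in Srgn+/+ 2, at 53.4 CPM, where Ciita and H2-Oa were also highest and H2-Ob was high. Endothelial markers (7 of 7 tested, 6 with higher values, 0 past the threshold in edgeR and 3 at an unadjusted p under 0.05) summed to 633 to 884 CPM in Srgn-/- fat, against 566 to 766 CPM in Srgn+/+ fat. No marker of the macrophage, dendritic cell, B-cell and T-cell lists was at 0 in all libraries. Their part in the class II values was not tested.

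**Figure D5:**
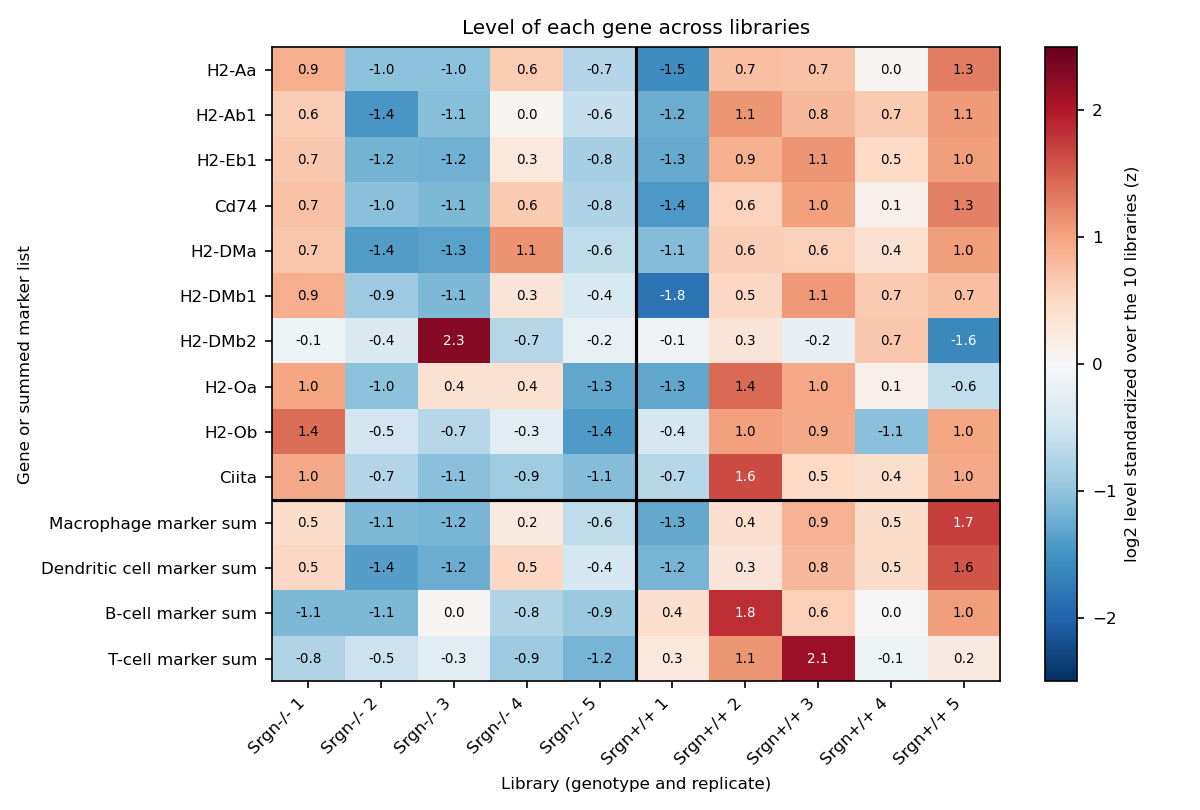
Log2 level of each gene and of 4 summed marker lists, standardized over the 10 libraries (z, colour and printed value); columns are libraries, Srgn-/- left and Srgn+/+ right of the black line. H2-Aa to H2-DMb1 follow the macrophage and dendritic cell sums with low values in Srgn-/- 2, 3 and 5 and Srgn+/+ 1, and H2-DMb2 departs with 2.3 in Srgn-/- 3. The T-cell sum is higher in every Srgn+/+ library than in any Srgn-/- library, and the B-cell sum is higher in most Srgn+/+ libraries.

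None of the listed regulators of class II or of Ciita passed the test. Of the proteins that bind class II promoters, 6 of 7 listed genes were tested, and 0 passed in edgeR (0 at an unadjusted p under 0.05), with a median log2 fold change of -0.08. Rfx5, the DNA-binding subunit of RFX, had 6.68 CPM on average in Srgn-/- and 7.74 CPM in Srgn+/+ (log2 -0.21, SE 0.198), Nfya of NF-Y had 50.5 and 56.4 CPM (log2 -0.16, SE 0.174), and Creb1 had 26.0 and 27.3 CPM (log2 -0.07, SE 0.101). In the interferon-gamma route, the main inducer of Ciita outside dendritic and B cells, 5 of 8 listed genes were tested and 0 passed in edgeR (0 at an unadjusted p under 0.05), with a median of 0.03. Irf1, which acts on the inducible Ciita promoter, had 60.8 CPM in Srgn-/- and 71.4 CPM in Srgn+/+ (log2 -0.23, SE 0.124), Ifngr2, a receptor chain, had 66.5 and 58.1 CPM (log2 0.20, SE 0.217), and the kinase Jak2 had 42.4 and 41.2 CPM (log2 0.04, SE 0.0996). All 5 factors listed for the other Ciita promoters were tested and 0 passed in edgeR (0 at an unadjusted p under 0.05). Spi1, the myeloid factor PU.1, had 70.7 CPM in Srgn-/- and 99.7 CPM in Srgn+/+ (log2 -0.49, SE 0.406), Irf8 had 73.0 and 89.0 CPM (log2 -0.28, SE 0.371), and Usf1 had 18.3 and 17.6 CPM (log2 0.06, SE 0.118).

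No gene that acts before or after peptide loading passed, and the direction was shared among the processing genes but mixed among the costimulatory ligands. All 9 proteases and helpers of antigen processing were tested, all 9 had lower values, and 0 passed in edgeR (0 at an unadjusted p under 0.05), with a median log2 fold change of -0.35. Cst3, a protease inhibitor, had 1962 CPM in Srgn-/- and 2248 CPM in Srgn+/+ (log2 -0.20, SE 0.0975), Ctsf had 92.1 and 105.5 CPM (log2 -0.20, SE 0.106), and Ctsz had 174 and 246 CPM (log2 -0.50, SE 0.297). Of the genes of surface turnover, March8, a ubiquitin ligase that removes class II from the surface, had 78.3 CPM in Srgn-/- and 81.6 CPM in Srgn+/+ (log2 -0.06, SE 0.0723). Cd83, which holds class II at the surface, had 12.0 and 24.9 CPM (log2 -1.04, SE 0.439; edgeR unadjusted p = 0.0374, adjusted p = 0.365), and March1 was at 0 reads in all libraries. Of 6 costimulatory and checkpoint ligands 5 were tested, 2 had lower values and 0 passed in edgeR (1 at an unadjusted p under 0.05), with a median of 0.03. Cd80, a ligand of CD28, had 4.58 CPM in Srgn-/- and 7.67 CPM in Srgn+/+ (log2 -0.73, SE 0.227; edgeR adjusted p = 0.247), Cd274, which encodes PD-L1, had 38.3 and 27.2 CPM (log2 0.50, SE 0.259), and Icosl had 11.1 and 9.55 CPM (log2 0.22, SE 0.161). Of the T-cell receptors for class II, Cd4 had 1.10 CPM in Srgn-/- and 2.58 CPM in Srgn+/+ (log2 -1.23, SE 0.469; edgeR unadjusted p = 0.0219, adjusted p = 0.322), and Lag3 had 16.4 and 14.5 CPM (log2 0.17, SE 0.166). DESeq2, limma-voom and limma-trend called 0 genes of these lists.

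In the mouse genome the class II genes other than Cd74 and Ciita lie in a row on chromosome 17, in the order H2-Oa, H2-DMa, H2-DMb2, H2-DMb1, H2-Ob, H2-Ab1, H2-Aa and H2-Eb1, with the class I peptide supply genes Psmb9, Tap1, Psmb8 and Tap2 between H2-DMb1 and H2-Ob. Of 7 listed genes of that row outside class II, all were tested, 6 had lower values and 0 passed in edgeR (1 at an unadjusted p under 0.05). Tap1, a subunit of the transporter that feeds peptides to class I, had 27.6 to 42.8 CPM in Srgn-/- libraries, against 41.1 to 80.3 CPM in Srgn+/+ libraries, a difference of -0.63 in log2 (SE 0.181; adjusted p = 0.225 in edgeR). Psmb8, an immunoproteasome subunit, had a log2 fold change of -0.37 (SE 0.191) and Tap2 one of -0.23 (SE 0.133).

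The genes whose libraries followed the class II genes most closely were not on any list. Likeness was Pearson's r, over the 10 libraries, between a gene's log2 CPM and the mean of the standardized log2 CPM of the 10 genes. That mean includes H2-DMb2, whose own r with it was -0.24, while the other 9 had 0.78 to 0.97. Tlr9, an endosomal receptor for DNA, and Lst1, a gene of leukocytes, had r = 0.98 each, and Gtse1 and Bub1b, both known from dividing cells, and Sp140 had r = 0.97 each. With each genotype centred on its own mean, r was 0.98, 0.98, 0.97, 0.96 and 0.96 in that order. Tlr9 had 8.25 to 22.4 CPM in Srgn-/- libraries and 8.76 to 25.0 CPM in Srgn+/+ libraries, with a log2 fold change of -0.41 (edgeR adjusted p = 0.591). Of the 12709 other genes, 143 (1.13%) had r of at least 0.9, and none of the 5 named is on a marker list.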

How the data were processed

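Total RNA was amplified by the Ion AmpliSeq mouse panel, with 1 target per gene, and read on an Ion S5 XL sequencer, per the labels' protocols. The submitters' processing notes name build mm9; aligner and counter: not given in the sources used here. Raw counts were deposited by the authors and used for all main values, beside deposited reads-per-million (RPM) values, which equal count over column total within 0.000591. Counts were filtered with edgeR 4.0.16 (filterByExpr, minimum count 10, minimum total 15; 11211 genes removed), scaled by TMM and compared by the two-sided quasi-likelihood test with robust dispersion in R 4.3.3, no covariate, with Benjamini-Hochberg adjustment over 12719 genes and a threshold of 0.05. CPM values use the library size of the genes tested and TMM factors, and a fold change is log2 of Srgn-/- over Srgn+/+ with its SE and 95% interval. Reads carry no molecular identifiers, so limits from a count of 0 cover counting error only. Alternatives were other scalings and filters, DESeq2 1.42.0, limma-voom and limma-trend (limma 3.58.1; log2 of RPM plus 1), each library left out, and the 3 libraries rich in epididymis RNA left out. The fit was tested on simulated data. The genes, 16 lists and alternatives were chosen with earlier results of these data known. Named genes are the 10, Srgn, up to 3 tested genes of each pathway list with the smallest p and the 5 most like the 10; H2-Ea-ps, H2-Eb2 and March1 were named after their values were seen. Listed genes without a row in the table were not analysed here. Levels of different genes are not compared, since amplicons differ in efficiency.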

Additional observations from a re-analysis of the deposited data

Results flagged for a closer look

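In 8 of 54 groups of 5 libraries checked (11 genes and 16 summed lists in both genotypes), the end library stood far from the rest of its group by Dixon's criterion, which chance meets in about 1 in 20 groups. Among the class II genes these were H2-DMb2 in Srgn-/- 3 at 39.4 CPM, with the next highest Srgn-/- library at 17.7 CPM, Ciita in Srgn-/- 1 at 66.0 CPM, with the next at 36.9 CPM, and H2-Ab1 in Srgn+/+ 1 at 616 CPM, with the next lowest Srgn+/+ library at 1168 CPM. Srgn itself reached 1.31 CPM in Srgn-/- 5, with 0.294 CPM or less in the other Srgn-/- libraries. The summed epididymis markers reached 6393 CPM in Srgn-/- 3, with 889 CPM the next Srgn-/- value, and 727 CPM in Srgn+/+ 4, with 21.5 CPM the next Srgn+/+ value. The B-cell markers summed to 28.1 CPM in Srgn-/- 3, with 21.2 CPM the next Srgn-/- value, and the minor class II region genes to 0.770 CPM in Srgn-/- 2, with 0.357 CPM the next.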

How the results depend on the processing

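None of the 10 genes passed the threshold under any of the 19 alternatives run (18 for H2-Oa and H2-Ob, which a mean of at least 5 CPM removed). Of all genes tested, 1 passed in edgeR, 3 with no filter on low counts, 221 with DESeq2 (107 lower), and 1 to 2 with a library left out (2 without Srgn+/+ 5 or Srgn-/- 1). Of the listed genes 0 passed, but DESeq2 called 3, Cd2, Cd79b and Pou2af1, all lower. The direction changed for H2-DMb2, with a log2 fold change of -0.12 to 0.34 with a library left out (below 0 without Srgn-/- 3) and -0.038 without the 3 epididymis libraries, and for H2-Oa, at -0.38 to 0.063 with a library left out (above 0 without Srgn+/+ 2). The other 8 genes stayed below 0 in all alternatives that tested them. Values were further below 0 without Srgn+/+ 1 or Srgn-/- 1: the median over the 10 genes was -0.41 and -0.39, and -0.38 without Srgn-/- 4, against -0.18 without Srgn-/- 2 and -0.11 without the 3 epididymis libraries; that fit also has fewer animals. At an unadjusted p under 0.05 there were 4 and 3 of the 10 genes without Srgn+/+ 1 and Srgn-/- 1, and 0 when any other library was left out. In the edgeR fit of all libraries 12.8% of all genes were under that threshold. The share of all genes in the fits with a library left out is not given here. Across all alternatives the lowest adjusted p of the 10 genes was 0.148, for Ciita without Srgn-/- 1 in edgeR. Other scalings moved the median of all genes to at most 0.05. The planned correlations with Ciita are not given, because the libraries lie in 2 sets of 5 along it. No paired analysis was possible because the labels give the animals no shared number. At 7 to 55 reads, depth limits what H2-Oa and H2-Ob can show.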
